A study of Mus musculus with 39 samples.

Results

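The inhibitor of DNA binding genes Id1, Id2, Id3 and Id4 were examined in single surviving crypt cells of the irradiated mouse small intestine, together with 4 genes of the BMP pathway that is known to switch them on: Bmpr1a, Smad1, Smad4 and Smad5. These 8 genes were taken by name from 25219 genes in the deposited table. They were chosen by earlier readings of the same FPKM values (fragments per length of transcript and per total fragments of the cell), so their levels and correlations are given as descriptions and no test was applied to them. Id2 and Id3 RNA was present at high levels in most of the 39 cells, Id1 was lower and missing in 11 cells, and Id4 was not found in any cell.

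All 39 cells were Lgr5-derivatives: tdTomato+ Sca1- crypt epithelial cells from animals that carried Lgr5-EGFP-Ires-CreERT2 and Rosa-lsl-tdTomato. The Lgr5 gene drives CreERT2 in these animals, so tamoxifen marks the cells that used Lgr5 at that time, and their progeny, with tdTomato. Tamoxifen was given 24 h before total body irradiation (TBI) with 10 Gy, and the cells were taken 48 h after TBI. No animal, age or sex is given for any cell and no unirradiated cell is in the series, so the cells were treated as 1 biological sample, no p-value was computed, and nothing here speaks to a change with irradiation. SDs and intervals describe the spread between cells and counting error only.

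Depth per cell lay between 398418 and 3903971 estimated counts (median 3089188), and 2287 to 5779 genes per cell reached 1 FPKM. Below, a gene is called detected at 1 FPKM or more. The epithelial markers Epcam, Krt8 and Krt18 were detected in all 39 cells. Of 8 immune, 4 stromal and 3 endothelial markers, only Lyz2 and Vim were detected, each in 1 cell and at no more than 3.29 FPKM, and Ptprc was not detected. Ly6a, which encodes the Sca1 antigen used for the sort, was detected in 4 cells (cells 2, 5, 34 and 43), of which cells 5 and 34 had 477 and 509 FPKM. Lgr5 itself was detected in 8 cells, while Olfm4, another stem cell gene, was detected in 33.

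Id proteins are helix-loop-helix proteins without the basic region that contacts DNA. They bind E proteins and other basic helix-loop-helix factors and keep them off their target genes, and so tend to hold back differentiation. BMP ligands bind type I receptors such as Bmpr1a together with type II receptors, the receptors phosphorylate Smad1, Smad5 and Smad9, and these enter the nucleus with Smad4. Id1, Id2 and Id3 are well known direct targets of that complex. In the intestine BMP activity is low at the crypt base, where antagonists from the mesenchyme limit it, and rises towards the villus.

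The 4 Id genes lie on different chromosomes (mm10/GRCm38). Id1 is at chr2:152736251-152737410 on the plus strand, Id2 at chr12:25093799-25096092 on the minus strand, Id3 at chr4:136143822-136145392 on the plus strand and Id4 at chr13:48261427-48264036 on the plus strand. The deposited Id4 model starts 311 bases after and ends 1992 bases before the RefSeq gene, whereas the other 3 coincide with RefSeq. The 250 bases before the RefSeq start (GRCm38.p6) are shown for the 2 most abundant members, Id2 and Id3, and for Id4, the member without RNA here. Capitals mark GGCGCC, a GC-rich sequence known to be bound by BMP Smads, and CANNTG, the E-box that basic helix-loop-helix factors bind.
Id2: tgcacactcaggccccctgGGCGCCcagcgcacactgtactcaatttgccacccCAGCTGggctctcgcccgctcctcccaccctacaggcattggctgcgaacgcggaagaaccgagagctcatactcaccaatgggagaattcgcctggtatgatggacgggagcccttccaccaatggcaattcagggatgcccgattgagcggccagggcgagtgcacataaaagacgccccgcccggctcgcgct
Id3: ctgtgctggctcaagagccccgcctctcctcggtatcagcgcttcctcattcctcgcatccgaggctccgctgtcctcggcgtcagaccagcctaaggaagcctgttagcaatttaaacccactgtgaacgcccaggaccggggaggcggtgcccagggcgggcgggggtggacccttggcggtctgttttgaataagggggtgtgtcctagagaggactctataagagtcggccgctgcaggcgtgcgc
Id4: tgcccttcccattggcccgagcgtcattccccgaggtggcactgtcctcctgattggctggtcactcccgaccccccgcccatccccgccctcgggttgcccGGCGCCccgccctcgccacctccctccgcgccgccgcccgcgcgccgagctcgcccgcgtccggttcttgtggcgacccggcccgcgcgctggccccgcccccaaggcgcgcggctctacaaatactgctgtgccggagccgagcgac

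These stretches are chr12:25096093-25096342 (minus strand), chr4:136143572-136143821 (plus strand) and chr13:48260866-48261115 (plus strand), in the same order. Their GC content was 62.8% for Id2, 62.8% for Id3 and 75.6% for Id4, against a median of 52.4% over all promoters of this length. GGCGCC was found once for Id2, with its first base 231 bases before the start, and once for Id4, at 148 bases. It was not in the Id3 stretch. On either strand, 9.59% of 32851 promoters hold it. CANNTG was found once, in Id2 at 196 bases, a motif that 66.2% of promoters hold. TGACG, part of cAMP response elements, was in Id3 at 170 bases and in Id4 at 229 bases (17.8% of promoters), and TATAAA was in none of these 3 (12.4% of promoters). Motifs were counted on both strands, and none of the matches shown overlaps another. A match describes these letters only, and the detected Id3 and the undetected Id4 both carried TGACG while Id2 did not.

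**Figure D1:**
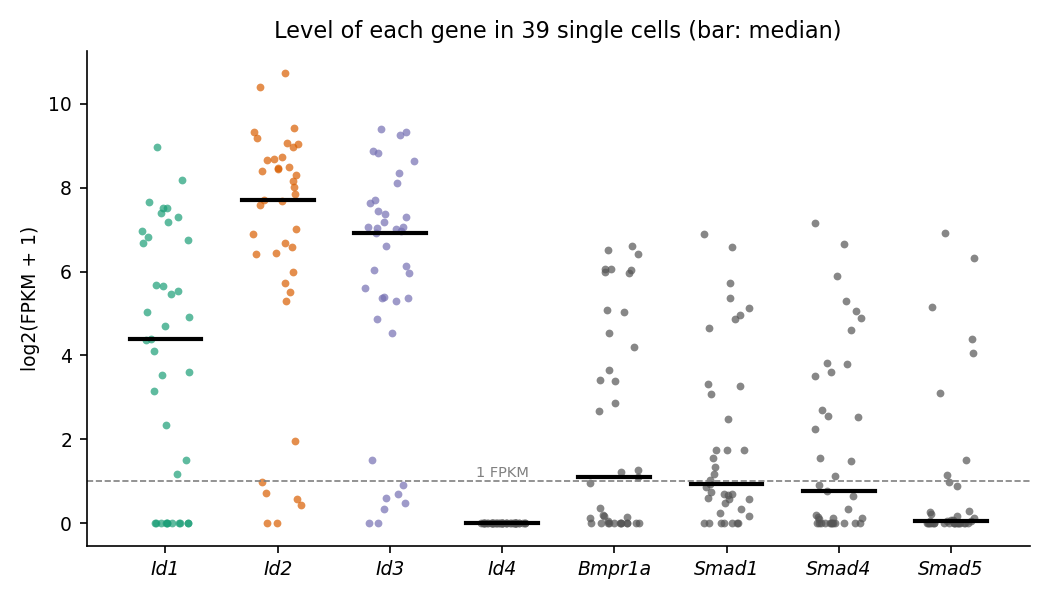
Level of each of the 8 genes, as log2(FPKM + 1), in each of 39 cells (points), with the median as a bar and 1 FPKM as a dashed line. Id2 and Id3 have the highest medians (207.5 and 120.2 FPKM), Id4 is at 0 in every cell, and the medians of Bmpr1a, Smad1, Smad4 and Smad5 lie near or under the detection limit.

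Id2 was the most abundant of the 8 genes. It ranged from 0 to 1700.4 FPKM with a median of 207.5 FPKM, and was detected in 33 of 39 cells (84.6%, exact Clopper-Pearson 95% interval 69.5 to 94.1%). Its values fell into 2 ranges, since 32 cells were at 10 FPKM or more, cell 48 had 2.90 FPKM and the remaining 6 were under 1 FPKM. Of the 25219 genes, 1386 (5.50%) were detected in at least as many cells.

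Id3 had a median of 120.2 FPKM, from 0 to 678 FPKM, and was detected in 32 cells (82.1%, 66.5 to 92.5%). It too was either high or nearly absent, with 31 cells at 10 FPKM or more, cell 96 at 1.86 FPKM and 7 cells under 1 FPKM. The highest Id3 values were in cells 30, 16 and 95 (678, 639.6 and 613 FPKM).

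Id1 had a median of 20.2 FPKM and a maximum of 502 FPKM in cell 34. It was detected in 28 cells (71.8%, 55.1 to 85.0%), and the other 11 cells had no Id1 count at all, with none between 0 and 1 FPKM. The detected values were spread widely, from 1.24 to 502 FPKM with a median of 47.7 FPKM, and 12 cells reached 100 FPKM. In 5 cells the Id1 count was not a whole number, which was not so for any other of the 8 genes.

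Id4 had 0 counts in all 39 cells. The exact 95% interval for 0 of 39 reaches up to 9.03% of cells. The 4 Id genes thus covered the range from one of the more abundant transcripts of these cells to one that was not detectable at this depth.

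Within a cell, Id2 exceeded Id1 by 2.68 ± 3.74 on the log2(FPKM + 1) scale (mean ± SD over 39 cells) and was the higher of the pair in 31 cells, the lower in 6 and equal in 2. Id3 exceeded Id1 by 1.77 ± 3.94 and was higher in 28 cells and lower in 9. Id2 exceeded Id3 by 0.91 ± 3.35, being higher in 25 cells and lower in 13. Each mean difference was smaller than its SD over cells, so the order Id2, Id3, Id1 held for the medians but not for every cell.

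The summed level of Id1, Id2 and Id3 ranged from 0 to 1955 FPKM with a median of 388 FPKM. Id2 was the leading gene in 21 cells, Id3 in 10 and Id1 in 5, and 3 cells (9, 86 and 92) had none detected. In the other 36 cells the leading gene held a median of 68.3% of the sum, and 90% or more in 5 cells. Cells with 1 gene far ahead included cell 72 (Id2 1700.4 FPKM, Id1 202.5 FPKM, Id3 22.1 FPKM), cell 48 (Id1 167 FPKM, Id2 2.90 FPKM, Id3 0.516 FPKM) and cell 79 (Id3 396 FPKM, Id2 0.341 FPKM, no Id1). By contrast, cell 95 had 639.7 FPKM of Id2 and 613 FPKM of Id3.

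**Figure D2:**
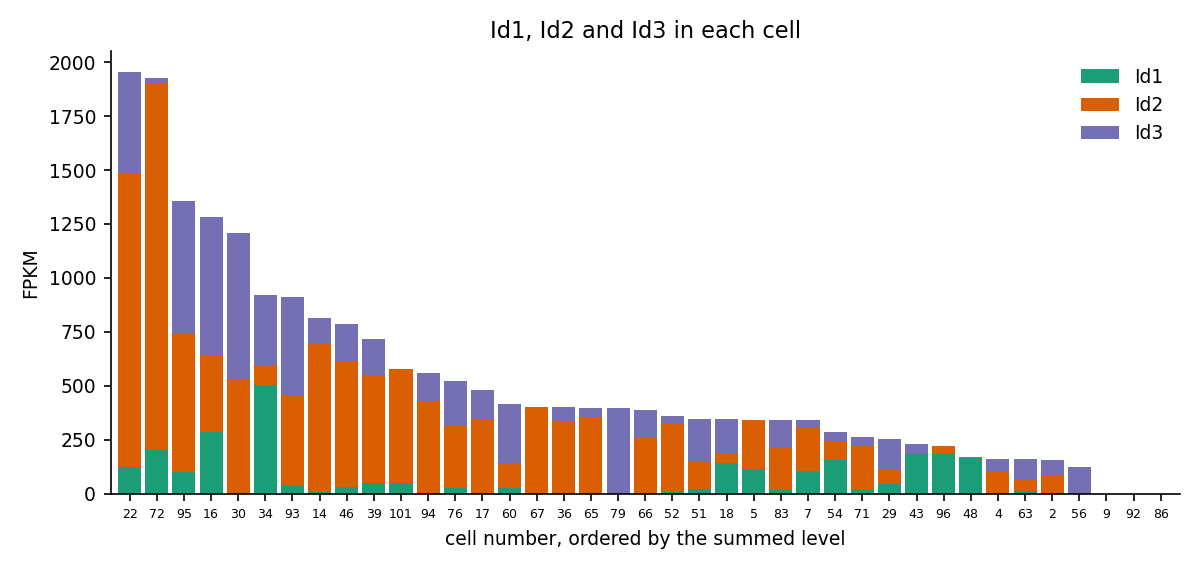
FPKM of Id1, Id2 and Id3 stacked for each of 39 cells, ordered by their sum. Id2 leads in 21 cells, Id3 in 10 and Id1 in 5, and cells 9, 92 and 86 at the right have nearly none.

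All 3 of these genes were detected together in 24 cells (61.5%). Id2 with Id3 was detected in 5 cells and Id1 with Id2 in 3, while Id1 with Id3 was seen in cell 43 alone. Id3 was the sole detected Id gene in cells 56 and 79, and Id2 in cell 67, whereas no cell had Id1 alone. Id2 was detected in 27 of the 28 cells with Id1 (96.4%) and in 6 of the 11 without it (54.5%). Among the cells with no Id gene detected, cell 9 was the shallowest (398418 estimated counts, 2287 genes), but cell 86 had 3899838 estimated counts and 4438 genes and cell 92 had 2753636 and 3484.

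Cells 86 and 92 also carried the highest Bmpr1a and Smad1 values of the series. Cell 86 had 96.9 FPKM of Bmpr1a (2348 estimated counts) and no count of Id1, Id2 or Id3. Cell 92 had 118 FPKM of Smad1 (1157 estimated counts), with 0.488 FPKM of Id2 and no Id1 or Id3. Neither cell had Smad4 at 1 FPKM, with 0.880 FPKM in cell 86 and 0.093 FPKM in cell 92. Smad4 was detected in only 18 of all 39 cells, however. Of the cells without it, 57.1% had Id1, 76.2% had Id2 and 81.0% had Id3. Both were selected after their values were seen.

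Bmpr1a, the type I receptor, had a median of 1.16 FPKM and was detected in 20 cells (51.3%, 34.8 to 67.6%). Of these, 13 cells reached 10 FPKM, and the median of detected values was 27.2 FPKM. Smad1, a receptor-regulated Smad, had a median of 0.913 FPKM and was detected in 19 cells (48.7%, 32.4 to 65.2%), and 1 of them, cell 92, exceeded 100 FPKM. Smad5, which shares its role with Smad1, was the least often detected of the 4, in 8 cells (20.5%, 9.30 to 36.5%), and cell 96 alone held 42.6% of its summed FPKM (121 FPKM, 2944 estimated counts). Smad4, the partner common to BMP and TGF-beta Smads, had a median of 0.708 FPKM and was detected in 18 cells (46.2%, 30.1 to 62.8%), with the highest values in cells 76 and 22 (141 and 100.5 FPKM).

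The mean log2(FPKM + 1) was 3.95 ± 3.04 for Id1, 6.63 ± 3.09 for Id2 and 5.72 ± 2.93 for Id3 (SD over 39 cells). It was 2.31 ± 2.55 for Bmpr1a, 1.90 ± 2.09 for Smad1, 1.84 ± 2.20 for Smad4 and 0.92 ± 1.87 for Smad5. Ordered by level (Id2, Id3, Id1, Bmpr1a, Smad1, Smad4, Smad5), neighbours differed by less than the SD of either. Id2 exceeded Bmpr1a in 36 cells, Smad1 in 34, Smad4 in 36 and Smad5 in 36 of 39. For the pathway genes the share of cells with any count was larger than the share at 1 FPKM: 82.1% against 48.7% for Smad1 and 51.3% against 20.5% for Smad5. When each cell was thinned to 300000 counts, 51.3% of cells kept a Smad1 count and 33.3% a Smad5 count, whereas Id2 and Id3 kept theirs in 87.2% and 84.6%.

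Across the cells, Id1, Id2 and Id3 were only weakly related in rank. Spearman rank correlation over 39 cells was 0.13 for Id1 and Id2, 0.15 for Id1 and Id3, and 0.31 for Id2 and Id3. Genes read in the same cell share its amplification and depth. The rank correlation with the number of genes detected was 0.14 for Id1, 0.23 for Id2 and 0.20 for Id3. Among 6544 other genes detected in at least 10 cells, the central 95% of rank correlations ran from -0.25 to 0.36 for Id1, from -0.27 to 0.41 for Id2 and from -0.28 to 0.35 for Id3, so that all these values lay among those of most genes. Without the 2 cells with the fewest genes (9 and 79) the rank correlation of Id1 and Id2 was 0.015 and that of Id2 and Id3 was 0.34. Without the 4 cells with Ly6a these were 0.23 and 0.33.

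The 12 pairings of an Id gene with Bmpr1a, Smad1, Smad4 or Smad5 had rank correlations from -0.12 to 0.31, with a median of 0.087. The highest was Id1 with Smad4 (0.31), followed by Id1 with Smad5 (0.26) and Id2 with Smad1 (0.18). The lowest were Id2 with Smad5 (-0.12) and Id3 with Smad1 (-0.11). The rank correlation with Bmpr1a was 0.086 for Id1, 0.087 for Id2 and 0.13 for Id3, lower than the rank correlation of Bmpr1a with the number of genes detected (0.44). Among the 6 pairs of pathway genes, the rank correlation was 0.28 for Smad4 with Smad5, 0.26 for Bmpr1a with Smad4 and for Smad1 with Smad5, 0.12 for Bmpr1a with Smad5, 0.058 for Bmpr1a with Smad1 and -0.12 for Smad1 with Smad4.

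**Figure D3:**
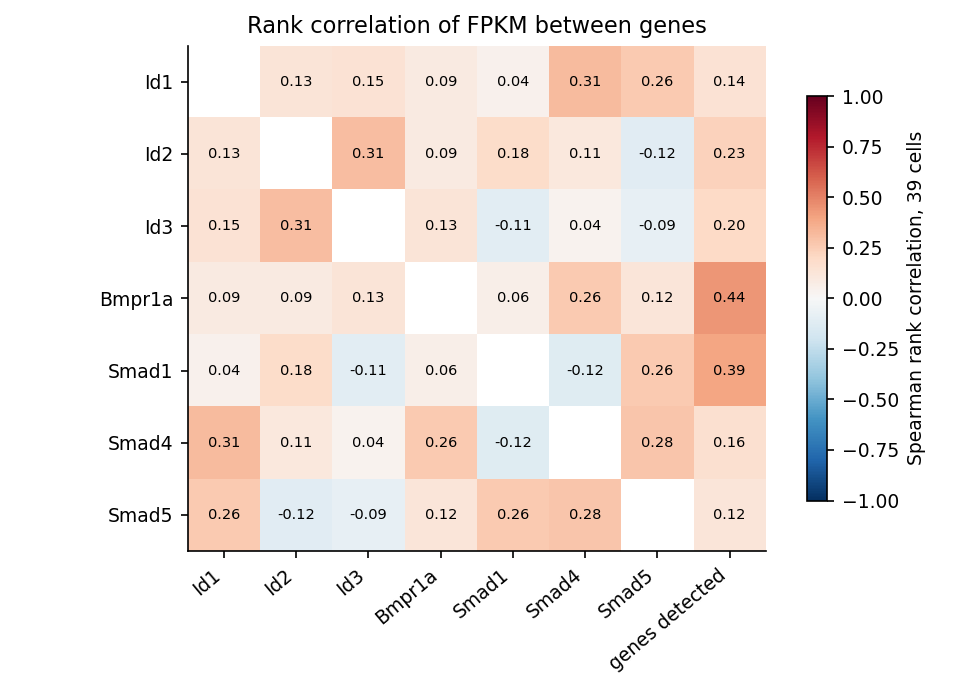
Spearman rank correlation of FPKM over 39 cells between 7 genes, and with the number of genes detected per cell (last column). Id4 is left out because it is at 0 in every cell. The values between an Id gene and Bmpr1a or a Smad gene run from -0.12 to 0.31.

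Presence of RNA of these pathway genes was also read cell by cell. Bmpr1a, Smad4 and Smad1 or Smad5 were detected together in 6 cells (7, 14, 22, 60, 71 and 93), and all 6 had Id1, Id2 and Id3, with medians of 34.04, 310.2 and 197 FPKM. Of all 39 cells, 24 (61.5%) had these 3 Id genes. Only cells 71 and 93 of the 6 also had a type II receptor detected. None of the 4 pathway genes was detected in 4 cells (48, 56, 79 and 94), of which 2 had Id1, 2 had Id2 and 3 had Id3. The cells without Id1 and Id2 were 56 and 79, which had 3204 and 2335 genes detected, against 4651 to 5708 in the 6 cells above and a median of 4609 over all cells. Among those 4, cell 94 had 426 FPKM of Id2 and 133 FPKM of Id3, and cell 79 had 396 FPKM of Id3. Most cells lay between these ends, with 17 cells having 1 of the 4 genes and 10 cells having 2. Id2 was detected in 18 of the 20 cells with Bmpr1a and in 15 of the 19 without it (78.9%), Id3 in 18 and 14 (73.7%), and Id1 in 15 (75%) and 13 (68.4%). With and without Smad4, Id1 was detected in 88.9% and 57.1% of cells, Id2 in 94.4% and 76.2%, and Id3 in 83.3% and 81.0%. Among the 27 cells with Bmpr1a or a type II receptor, 19 had Id1, 22 had Id2 and 22 had Id3, against 28, 33 and 32 of all 39. Among the 10 cells with both Bmpr1a and a type II receptor, 8 had Id1, 9 had Id2 and 10 had Id3. Depth and dropout enter both sides of these counts, and their part was not tested.

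The rest of the pathway, from lists of known genes, was mostly seen in few or no cells, as were most genes. Of all 25219 genes, 13459 had a value above 0 in any cell. The share detected in at least 8 cells was 29.1%, and in at least 20 cells 14.5%. Of 12 BMP ligands, Bmp7 was detected in 9 cells, Bmp8b in 3 and Bmp1, a protease despite its name, in 2. Bmp2 and Bmp4 had no value above 0 in any cell. Of the receptors, the type II receptors Bmpr2 and Acvr2a were detected in 13 and 7 cells, the coreceptor Rgmb in 20, Acvr1 and Acvr2b in 1 each, and Bmpr1b in none. Smad9, the third BMP Smad, was not detected, so Smad1 and Smad5 were the receptor-regulated BMP Smads seen here.

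Of 13 inhibitors of the pathway, 5 were detected in any cell. These were the extracellular modulator Twsg1 in 15 cells, the ubiquitin ligases Smurf2 in 11 and Smurf1 in 2, the inhibitory Smad7 in 6 and the decoy receptor Bambi in 1. The secreted antagonists Nog, Chrd and Grem1 and the inhibitory Smad6 had no value above 0. Among 7 BMP targets outside the Id family, Smad7 and Atoh8 were each detected in 6 cells, Bambi and Hey1 in 1 each, and Smad6, Msx1 and Msx2 in none, against 28 to 33 cells for Id1, Id2 and Id3.

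The partners of the Id proteins had lower median RNA levels than Id1, Id2 and Id3. The E proteins Tcf3, Tcf4 and Tcf12 were detected in 14, 14 and 11 cells, with medians of 0.397, 0.115 and 0.135 FPKM. Ascl2, the basic helix-loop-helix factor of crypt base stem cells, was detected in 20 cells with a median of 3.50 FPKM, and Atoh1, that of the secretory lineage, in 4. The rank correlation of Ascl2 with Id1, Id2 and Id3 was 0.29, 0.26 and 0.17. Immediate early genes, which react to handling and stress, varied in how often they were seen: of 8, Egr1 was detected in 30 cells, Fos and Jun in 27 each and Ier2 in 22, but Junb in 11, Fosb in 6, Dusp1 in 5 and Atf3 in 4. The rank correlation of Egr1 was -0.16 with Id1, 0.19 with Id2 and -0.21 with Id3, and that of Fos was 0.12 or less with all 3.

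The genes whose ranks were closest to each Id gene differed from one to the next. Of 6544 genes, 13 (0.199%) reached a rank correlation of 0.5 with Id1, 29 (0.443%) with Id2 and 10 (0.153%) with Id3. No gene reached it with both Id1 and Id2 or both Id1 and Id3, and 1 did with both Id2 and Id3. Lists this short, drawn at random from 6544 genes, would also share few genes or none, so the overlap says little. The closest to Id1 were Sbds (0.58), Lrpprc (0.57), Gpx1 (0.55), Cnpy4 (0.54) and Tcf20 (0.52). The closest to Id2 were Pfas (0.63), Vps35 (0.62), Hmga2 (0.61), Polr2a (0.60) and Srsf3 (0.57). Pfas is an enzyme of purine synthesis, Polr2a the large subunit of RNA polymerase II and Srsf3 a splicing factor. The closest to Id3 were Msh6 (0.55), Arf1 (0.54), 2210039B01Rik (0.54), Akr7a5 (0.53) and Emc10 (0.53). These are the top values out of 6544 over 39 cells, and they are given as a description.

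Of the marker lists, proliferation and stem cell genes had similar median rank correlations with Id2 (0.26 and 0.25). The 7 proliferation genes had rank correlations with Id2 from 0.081 to 0.54, the highest being Pcna, the replication clamp (0.54), and Mcm5, a subunit of the replicative helicase (0.42). The other 5 lay within the central 95% of all genes for Id2, and the median of the 7 was 0.19 for Id3 and -0.044 for Id1. The 5 Paneth genes detected in at least 10 cells had rank correlations from -0.31 to -0.011 with Id2 and from -0.38 to -0.051 with Id3. With Id1 they ran from -0.29 to -0.028. The other Paneth gene of the list, Mmp7, was detected in 9 cells and had -0.11 with Id1, 0.0087 with Id2 and 0.11 with Id3. Among stem cell genes, Aqp4 and Smoc2 had rank correlations of 0.36 and 0.35 with Id2, and Lgr5, detected in only 8 cells, -0.38.

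The study grouped these cells on an intestinal stem cell (ISC) signature. Repeating such a grouping with 98 genes of the signature gave 22 ISC-high and 17 ISC-low cells. None of the 8 genes is in that signature, whereas Id1, Id2 and Id3 are all in the YAP signature that the study used. The groups come from the same cells and allow no test. The ISC-high cells had a median of 4663.5 detected genes against 4073, and 1878 of the 9804 genes that averaged 1 FPKM or more over the cells (19.2%) were higher by at least 1 on the log2(FPKM + 1) scale, with a median of 0.28 over all 9804.

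Id2 showed the widest gap of the 8 genes, with a mean log2(FPKM + 1) of 8.02 ± 2.15 in ISC-high and 4.83 ± 3.25 in ISC-low cells. Its medians were 343 and 62.7 FPKM, and it was detected in 21 of 22 and 12 of 17 cells. The ranges overlapped, from 0 to 1700.4 FPKM and from 0 to 426 FPKM. Bmpr1a was at 3.18 ± 2.71 and 1.18 ± 1.85 and was detected in 15 and 5 cells. Id3 was at 6.35 ± 2.45 and 4.92 ± 3.36, and Smad1 at 2.37 ± 2.11 and 1.30 ± 1.95. Of the 7 genes with any RNA, 4 were thus higher by at least 1 in ISC-high cells, against 19.2% of the 9804 genes, and none was lower by as much. The central 95% of the 9804 differences ran from -1.13 to 2.25, so few genes were lower by 1. ISC-high cells also had more estimated counts (median 3393500 against 2704770), and the part of depth was not tested. Without the 2 cells with the fewest genes, both ISC-low, the Id2 difference was 2.62, against 3.19 with all cells.

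Id1 hardly differed, at 4.11 ± 2.74 in ISC-high and 3.75 ± 3.48 in ISC-low cells. The sign of this difference was not stable, as it was 0.35 with all cells, -0.15 without the 2 cells with the fewest genes 1.17 without the 4 cells with Ly6a, and 1.60 with a pseudocount of 0.1 FPKM in both grouping and levels, or 0.77 with that pseudocount and unchanged groups. The difference of Id3 was 1.42, and 2.33 and 1.70 under these last 2 settings. Smad4 and Smad5 differed by 0.44 and 0.53. Which Id gene led also differed between the groups in number. Id2 led in 16 of 22 ISC-high cells and in 5 of 17 ISC-low cells, Id3 in 4 and 6, and Id1 in 1 and 4. The 4 ISC-low cells led by Id1 were cells 34, 43, 48 and 96, and 2 of these, cells 34 and 43, were among the 4 cells with Ly6a. Cell 96 had 1162 FPKM of Avil and 222 FPKM of Dclk1, both tuft cell genes.

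Markers of other epithelial lineages were also set side by side in these groups. The summed FPKM of the 4 tuft genes ranged from 0 to 11.04 in ISC-high and from 0 to 1556 (cell 96) in ISC-low cells. Dclk1 was detected only in cells 79 and 96. The 6 Paneth genes summed to a median of 197 FPKM in ISC-high and 441 FPKM in ISC-low cells, with maxima of 2113 and 12127 FPKM. The 6 goblet genes had medians of 169 and 178 FPKM and maxima of 4817 and 41329 FPKM (cell 63), and the 7 enterocyte genes medians of 402 and 338 FPKM and maxima of 1297 and 41011 FPKM (cell 79). Clu, a marker of revival stem cells, reached 126 FPKM in ISC-high cells and 1124 FPKM in ISC-low cells (cell 92). Without the 2 cells with Dclk1, the differences were 0.36 for Id1, 2.93 for Id2 and 1.44 for Id3, and the part of the other markers in them was not tested.

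**Figure D4:**
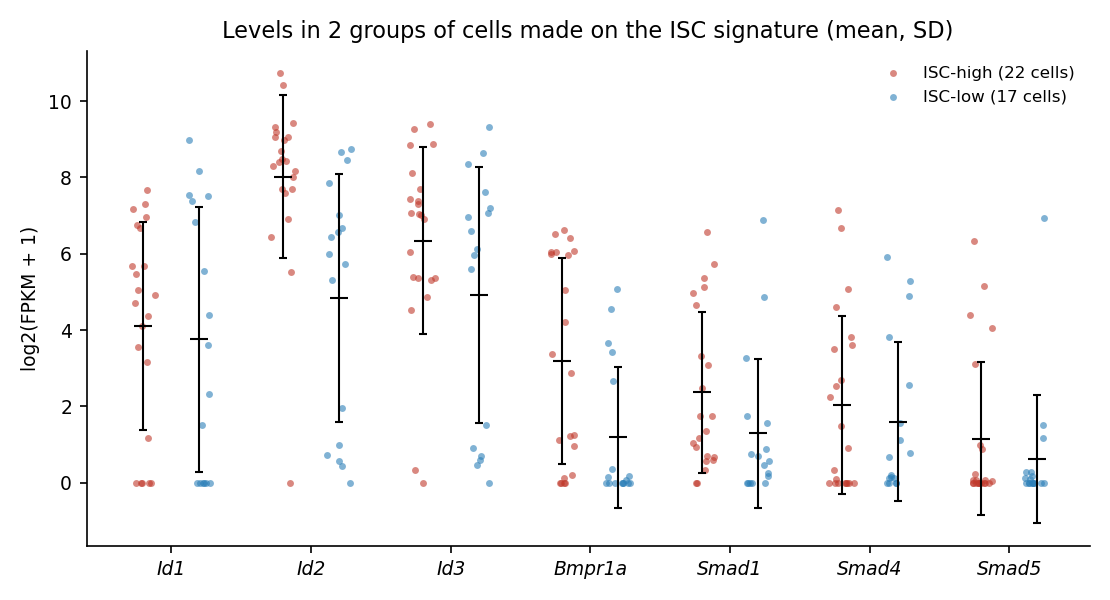
log2(FPKM + 1) of 7 genes in 22 ISC-high and 17 ISC-low cells (points), with the mean and SD over cells as bars. The gap is widest for Id2 (8.02 against 4.83), and the points of both groups overlap for every gene.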

How the data were processed

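RNA of 39 single cells was amplified by the authors with SMARTer chemistry on a C1 chip and made into libraries with Nextera XT, without molecular identifiers. The submitters' processing notes name bcl2fastq 1.8.4, TopHat2 2.0.14 and mm10/GRCm38, and the counting tool is not given in the sources used here. The authors deposited 1 table with an FPKM value and an estimated count per gene and cell. Of the estimated counts above 0, 18.5% were not whole. The 8 genes and all lists were chosen with earlier results of these data known. Detection was set at 1 FPKM, and levels were averaged as log2(FPKM + 1). Named genes were the 8 members, genes of the lists and, for each Id gene, the 5 with the highest Spearman rank correlation among genes detected in at least 10 cells. Cells were grouped by complete linkage on Euclidean distances of 98 signature genes. The correlation and group-difference calls were tried on simulated counts with strong planted effects. In those counts the other genes were independent and unshifted between groups, so they say little about the calls in these cells. No count model was used, since no replicate is named. Alternatives were other detection limits, a pseudocount of 0.1 FPKM, rescaled FPKM, thinning to 300000 counts, Pearson's r, Ward linkage and cells left out. Promoters came from RefSeq, where 3 of the 4 Id genes had a promoter entry. The gene positions given are those of the deposited models, which were set against RefSeq. Python 3.11.15, numpy 2.4.6, pandas 2.3.3 and scipy 1.17.1 were used.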

Additional observations from a re-analysis of the deposited data

How the results depend on the processing

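No paired analysis was possible because all cells form 1 group and no result comes from a test. The shares of detected cells depended on the limit. Counting any value above 0 FPKM, or any estimated count, gave 94.9% of cells for Id2, 94.9% for Id3, 69.2% for Bmpr1a, 82.1% for Smad1, 69.2% for Smad4 and 51.3% for Smad5, and a limit of 5 FPKM gave 28.2% for Smad1. With a pseudocount of 0.1 FPKM the mean log2 level was -3.32 for Id4, which is the value of 0 FPKM on that scale, and -1.44 for Smad5. Pearson's r of log2(FPKM + 1) was 0.076 for Id2 and Smad5, where the rank correlation was -0.12. Of 60 alternative correlations, 5 had another sign than the value reported, each with a main value of 0.115 or less in size. In all, 154 alternative values, 4 of these sign changes among them, moved by less than the spread they were set against. That spread is the SD over single cells for levels and group differences, which is wide, so this says little about stability. Leaving out cells with Ptprc left out 0 cells. Its values, counted among the 60 and the 154, repeat the main values and could not change. Leaving out the 4 cells with Ly6a or the 2 with Dclk1, and setting the pseudocount of 0.1 FPKM on unchanged groups, were chosen after seeing the data. Ward linkage gave the same 22 and 17 cells, so its group differences, also among the 154, repeat the main values. A pseudocount of 0.1 FPKM gave 24 and 15. In deep cells 1 estimated count lies under 1 FPKM for these genes, and the part of depth in the low values was not tested.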
